A study of Bos taurus with 6 samples.

Results

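Intermediate filaments are the rope-like protein polymers that give an animal cell its tensile strength, and 9 genes of that family are described here: GFAP, VIM, DES, NES, SYNM, KRT8, KRT18, KRT19 and LMNA. They were picked by name, with earlier results of the same comparison known, out of 27607 genes in the deposited tables, and each symbol matched 1 Ensembl identifier. Of the 9, 8 had a mean of at least 10 normalized counts over the 6 libraries and were tested among 13180 genes, and KRT19 did not reach that level. Their differences between the groups are therefore a description, and no finding rests on how many of them passed a test.

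The RNA came from chondrocytes of the deep zone of bovine articular cartilage, which borders the bone, taken from 3 independently collected knees. All cells of both groups had been infected with a lentivirus carrying bovine CREB5, which encodes a bZIP transcription factor, under doxycycline control, and had been selected for 11 days in G418 at 500 µg/ml. Both groups were then held for 3 days on low attachment plates with 10% FBS, 20 ng/ml of TGFb2 and 100 ng/ml of TGFa. The Dox- group (3 libraries) received no doxycycline, and the Dox+ group (3 libraries) received it at 1 µg/ml per the labels' treatment protocol, where the series' design text gives 1 mg/ml, so the dose is uncertain. That protocol describes the Dox+ condition for every sample, and the groups were taken from the sample titles. The labels describe selection of a population, with no cloning step, and give no age or strain of the animals. No group here received doxycycline without the CREB5 virus, so effects of doxycycline itself and of CREB5 cannot be told apart.

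As background, cytoplasmic intermediate filaments are sorted into types by sequence. Vimentin, desmin and GFAP are type III proteins that can polymerize on their own: vimentin is the standard filament of mesenchymal cells, chondrocytes included, desmin that of muscle, and GFAP (glial fibrillary acidic protein) that of astrocytes. Nestin and synemin are large proteins that join filaments built by type III partners, keratins 8, 18 and 19 are the acidic and basic partners of simple epithelia and of notochordal cells, and lamin A/C lines the inside of the nuclear envelope.

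The normalized counts stood for between 20063379 reads (Dox+ 3) and 122366790 reads (Dox+ 2) per library, so a floor of 3 reads was worth between 1.32 and 6.98 normalized counts, for counting error only. CREB5 stood at 510, 308 and 330 normalized counts in Dox- 1, 2 and 3 and at 20935, 12413 and 21964 in Dox+ 1, 2 and 3, so every library was on the side its label gives. Of 12 chondrocyte markers, 11 were tested; ACAN (the cartilage proteoglycan aggrecan), CHAD and COL9A1 fell (with the block also COL2A1 and COL11A2, at limma adjusted p = 0.0023 and 0.00024, against 0.22 and 0.055 without it), MATN3 rose, and the summed level of the list was 158509 to 313152 in Dox- and 104691 to 123118 in Dox+ libraries. With 1 library left out, ACAN (adjusted p in limma up to 0.17), CHAD (up to 0.18) and MATN3 (0.059) missed the threshold at least without Dox+ 3, and COL9A1 kept its call. Over all 13180 genes, limma called 2.88% at an adjusted p under 0.05 (2.52% higher and 0.357% lower in Dox+), and 6.51% with the replicate number as a block (4.86% higher and 1.65% lower). Levels below are normalized counts, not corrected for gene length, with mean ± SD and n = 3. Fold changes are differences between group means of log2(normalized count + 1), and adjusted p-values are those of limma over all tested genes, with the value under the block where it changes a call.

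GFAP (ENSBTAG00000013534) was the filament gene that differed most. It stood at 860, 2312 and 1273 in Dox- 1, 2 and 3 and at 47.4, 194 and 16.3 in Dox+ 1, 2 and 3. Every Dox+ library lay below every Dox- library, with Dox+ 2 the highest of its group and Dox- 1 the lowest of its group. The group means were 1481 ± 748 and 85.8 ± 94.8 (n = 3), a log2 difference of -4.64 (SE 0.77), or 25.0-fold. No other gene of the 13180 had a lower log2 fold change, and over the alternatives GFAP ranked between 1 and 3 from the lowest. Within pairs of the same number, the Dox- level was 18.1, 11.9 and 78.2 times the Dox+ level for numbers 1, 2 and 3.

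The size of that difference was loosely fixed, and the Dox+ values rested on few reads in the shallower libraries. The Dox- libraries held 1402, 1563 and 2082 GFAP reads, against 28, 439 and 7 in Dox+ 1, 2 and 3. Counting error alone put Dox+ 3 between 6.54 and 33.5 normalized counts and Dox+ 1 between 31.5 and 68.5 (95% exact Poisson intervals). The 95% interval of the log2 difference ran from -6.40 to -2.88. Its limma adjusted p was 0.014, and 0.00013 with the replicate block. Leaving out Dox+ 1 (0.052), Dox- 2 (0.060) or Dox- 3 (0.058), or the variance trend (0.054), took that limma adjusted p past the threshold. The log2 difference stayed between -5.56 and -3.81 over all alternatives. In the authors' deposited table it is -4.38 (SE 0.40). In bulk RNA, fewer cells with a transcript and less of it per cell cannot be told apart, which holds for every level given here.

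VIM (ENSBTAG00000018463), the filament gene with the most counts, was also lower in each Dox+ library. It stood at 470562, 454684 and 493404 in Dox- 1, 2 and 3 and at 311366, 245683 and 245973 in Dox+ 1, 2 and 3. The groups did not overlap, and libraries within a group lay close together: 91.7% of the tested genes had a larger residual SD. The means were 472884 ± 19464 and 267674 ± 37839 (n = 3), a 1.78-fold difference (log2 -0.83, SE 0.27, 95% interval -1.45 to -0.21). The test of limma was not passed (adjusted p = 0.24, and 0.11 with the replicate block), and DESeq2 on the recovered reads did call it lower (adjusted p = 0.0011). With quantile normalization the log2 difference was -0.40, with limma adjusted p = 0.58. The authors' deposited table gives -0.76 with an adjusted p of 0.00092.

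VIM made up 0.922%, 0.768% and 0.922% of all counts in Dox- 1, 2 and 3, against 0.606%, 0.455% and 0.527% in Dox+ 1, 2 and 3. It ranked between 8 and 12 among all genes in the Dox- libraries and between 10 and 16 in the Dox+ libraries. Among the counts of 65 filament genes it held between 91.3% and 91.9% in Dox- and between 85.5% and 86.1% in Dox+ libraries. Together the 65 genes took between 0.841% and 1.01% of counts in Dox- and between 0.530% and 0.704% in Dox+ libraries, without overlap.

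DES (ENSBTAG00000005353) went the other way within each pair. It stood at 6373, 982 and 4224 in Dox- 1, 2 and 3 and at 16005, 5150 and 10804 in Dox+ 1, 2 and 3. The groups overlapped, since Dox+ 2 lay below Dox- 1, yet each Dox+ library exceeded the Dox- library of its number, by 2.51, 5.24 and 2.56 times. The means were 3860 ± 2714 and 10653 ± 5429 (n = 3), a 3.23-fold difference (log2 1.69, SE 0.66). The limma adjusted p was 0.36 without and 0.0014 with the replicate block, whose 95% interval was 1.18 to 2.20. Without Dox- 2, the lowest library, the log2 difference was 0.89. DESeq2 on the recovered reads, with group only, gave DES an adjusted p of 0.55. The authors' deposited table, whose model is not stated in the sources used here, gives 1.62 with an adjusted p of 1.1e-09. DES took 1.24%, 0.197% and 0.785% of the filament counts in Dox- 1, 2 and 3, against 4.43%, 1.80% and 3.75% in Dox+ 1, 2 and 3.

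**Figure D1:**
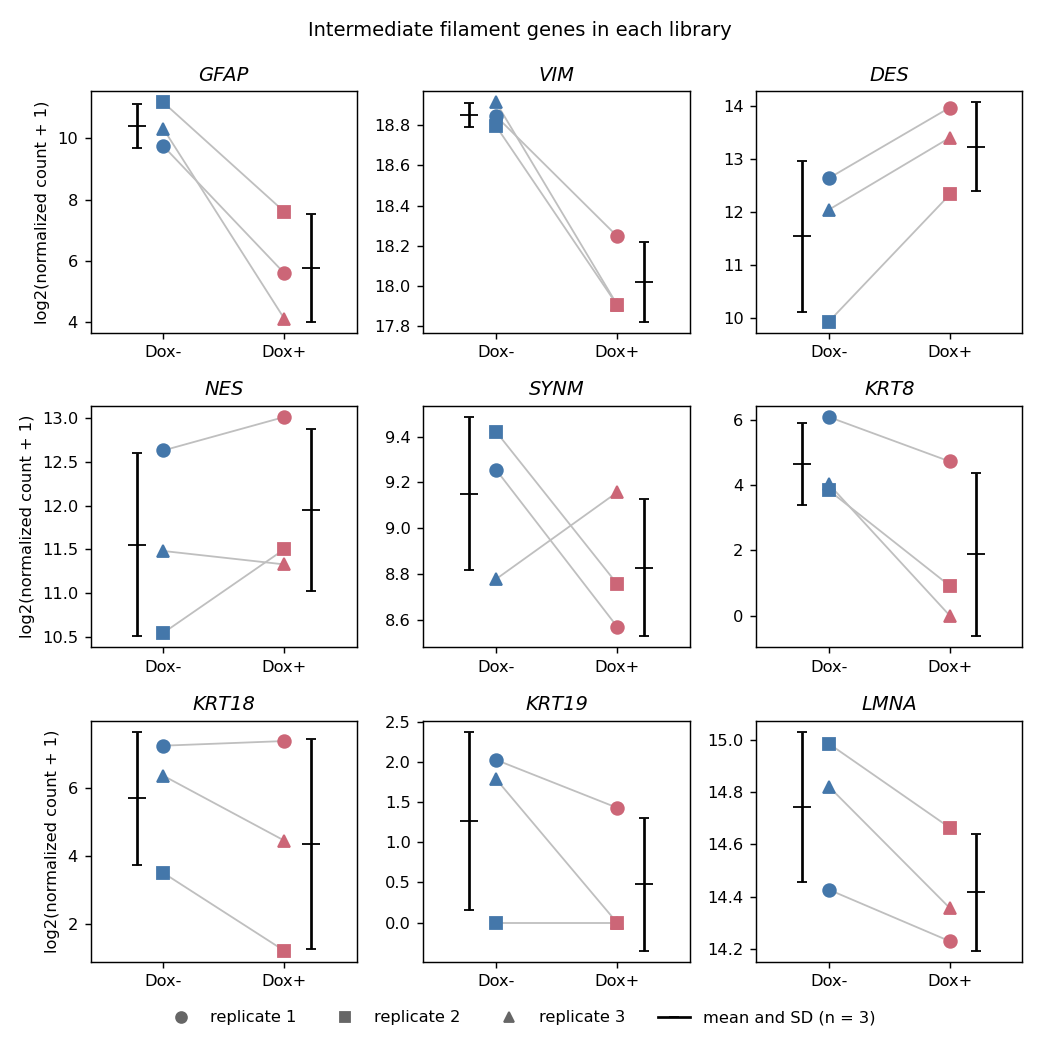
Normalized counts of the 9 filament genes in each of the 6 libraries, as log2(normalized count + 1), with a scale of its own for each gene; symbols mark the replicate number, lines join libraries of the same number, and bars are the group mean and SD (n = 3). GFAP and VIM show no overlap between Dox- and Dox+, DES rises along all 3 lines, and KRT19 rests on at most 5 reads in any library.

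Nestin and synemin, which join filaments of other proteins, showed no common direction over the 3 pairs. NES (ENSBTAG00000015794) stood at 6346, 1492 and 2859 in Dox- 1, 2 and 3 and at 8275, 2898 and 2570 in Dox+ 1, 2 and 3. It was 1.30 and 1.94 times higher in Dox+ of pairs 1 and 2, and at 0.899 times the Dox- level in pair 3. The log2 difference was 0.40 with a 95% interval of -0.89 to 1.68 (limma adjusted p = 0.90). SYNM (ENSBTAG00000011752) stood at 610, 685 and 438 in Dox- 1, 2 and 3 and at 379, 432 and 570 in Dox+ 1, 2 and 3. It was lower in Dox+ of pairs 1 and 2, by 1.61 and 1.59 times, and 1.30 times higher in pair 3. Its log2 difference was -0.32 with a 95% interval of -0.93 to 0.28 (limma adjusted p = 0.82). Both pairs of groups overlapped, and both intervals include 0.

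The 3 keratins of simple epithelia rested on few reads in some or all libraries. KRT8 (ENSBTAG00000000836) stood at 66.8, 13.3 and 15.3 in Dox- 1, 2 and 3 and at 25.4, 0.883 and 0 in Dox+ 1, 2 and 3. These values rested on 109, 9 and 25 reads and on 15, 2 and 0 reads. KRT8 was lower in Dox+ of 3 of 3 pairs, but Dox+ 1 lay above Dox- 2 and Dox- 3. The log2 difference was -2.77 (SE 1.25), and -1.63 with a pseudocount of 5, so its size depends on the constant added to the counts. The limma adjusted p was 0.49, and 0.045 with the replicate block, under which edgeR gave an adjusted p of 0.11. Dox+ 3 had no KRT8 read, and counting error alone put its level between 0 and 8.58 normalized counts (95% exact Poisson interval). KRT8 and KRT18 are known to have many pseudogene copies in mammalian genomes, and reads shared with such copies may have been counted either way.

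KRT18 (ENSBTAG00000001517), the partner of keratin 8, stood at 151, 10.4 and 81.3 in Dox- 1, 2 and 3 and at 166, 1.32 and 20.9 in Dox+ 1, 2 and 3. It was high in replicate 1 of both groups and near the floor in replicate 2 of both groups, and the groups overlapped. Its log2 difference of -1.35 had a 95% interval of -4.73 to 2.02 (limma adjusted p = 0.87), and only 0.37% of tested genes had a larger residual SD. KRT19 (ENSBTAG00000004905) had 5, 0 and 4 reads in Dox- 1, 2 and 3, against 1, 0 and 0 in Dox+ 1, 2 and 3, and no difference could be measured at this depth.

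LMNA (ENSBTAG00000017574), which encodes lamins A and C, stood at 22024, 32427 and 28944 in Dox- 1, 2 and 3 and at 19211, 25950 and 20973 in Dox+ 1, 2 and 3. It was lower in Dox+ of 3 of 3 pairs, by 1.15, 1.25 and 1.38 times, and the groups overlapped. The log2 difference was -0.33 with a 95% interval of -0.82 to 0.16, and -0.72 to 0.06 with the replicate block (limma adjusted p = 0.74 and 0.42).

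Of the 8 tested genes, limma called 1 (GFAP, lower), against 2.88% of all genes. With the replicate block it called 3 (GFAP and KRT8 lower, DES higher), against 6.51% of all genes. edgeR with the block called 2 (GFAP lower, DES higher), against 5.93% of all genes, and DESeq2 without it called 2 (GFAP and VIM, both lower), against 5.33%. The groups did not overlap for 2 of the 8 (GFAP and VIM, both lower in Dox+), against 15.2% of all genes in either direction, 8.88% higher and 6.29% lower. The authors' deposited table gives 3 of the 8 an adjusted p under 0.05 (GFAP, VIM and DES), against 7.3% of its 14664 genes with an adjusted p. Because the genes were chosen with this comparison in view, nothing is read from those counts.

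**Figure D2:**
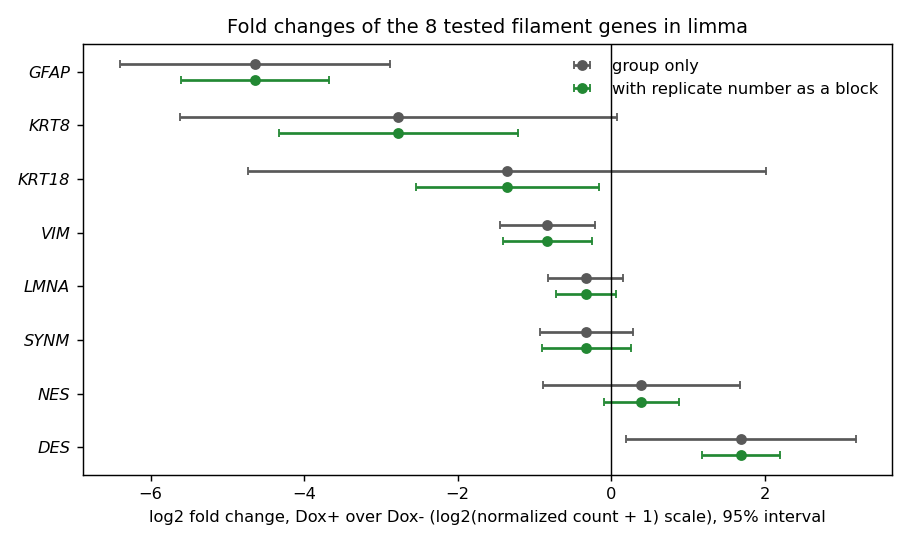
Log2 fold change of the 8 tested filament genes, Dox+ over Dox-, with 95% intervals from limma with group only (grey) and with the replicate number as a block (green). GFAP stands at -4.64, the block narrows the intervals most for GFAP, DES, NES, KRT8 and KRT18, and the intervals of NES, SYNM and LMNA include 0 under both.

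Libraries of the same number deviated alike for some of the filament genes. DES and KRT18 were ordered 1, 3, 2 from high to low in both groups, and LMNA was ordered 2, 3, 1 in both, so 3 of 8 genes (37.5%) kept 1 order, against 24.9% of all tested genes. NES, KRT8, KRT18 and DES were highest in replicate 1 of both groups, and GFAP and LMNA were highest in replicate 2 of both groups. The share of all genes that do so was not taken, so this does not set the filament genes apart. The residual SD of log2 values went from 1.16 without the block to 0.43 with it for DES, from 0.99 to 0.39 for NES, from 1.98 to 0.95 for KRT8 and from 2.58 to 0.92 for KRT18. For VIM it was 0.15 with either, and for SYNM it was 0.32 without and 0.43 with the block. The median over all tested genes was 0.35 without and 0.26 with the block.

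**Figure D3:**
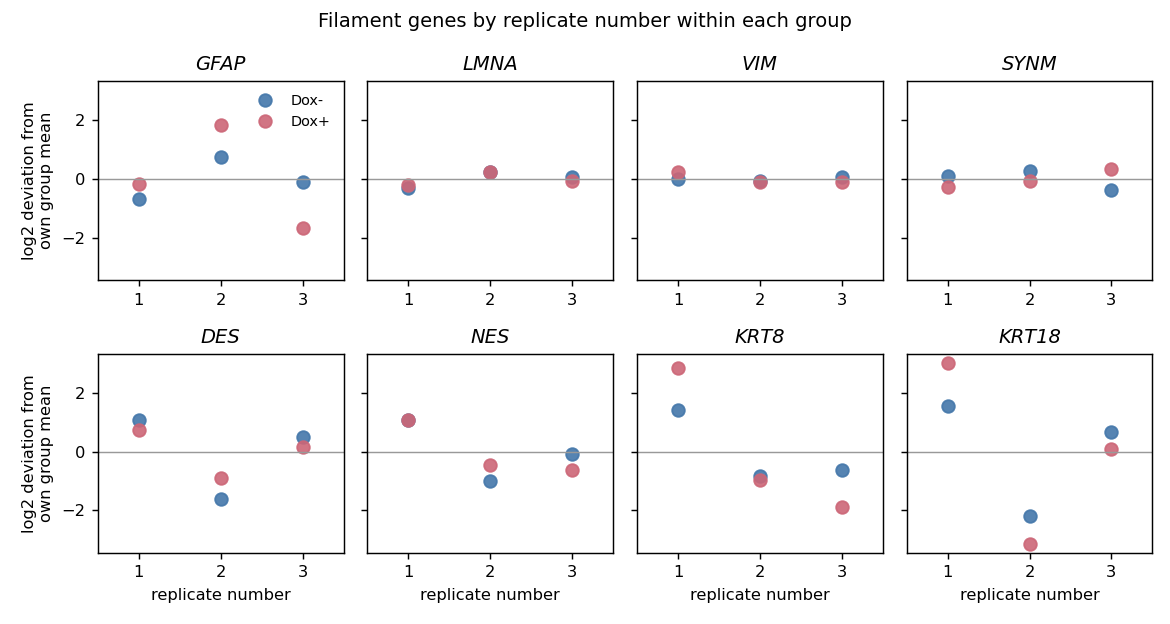
Deviation of each library's log2 value from its group mean, for the 8 tested filament genes, by replicate number, with Dox- in blue and Dox+ in red. DES, KRT8, KRT18 and NES are highest in replicate 1 of both groups, and VIM deviates least, with a residual SD of 0.15.

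Beyond the 9 genes, 61 other filament genes had been listed, of which 56 were matched and 9 were tested. 1 of these rose and none fell in limma, against 2.52% and 0.357% of all genes, and their median log2 fold change was -0.10, against -0.0036 for all genes. The gene that rose was NEFH, the heavy neurofilament subunit of large axons. NEFH stood at 107, 54.7 and 108 in Dox- 1, 2 and 3 and at 306, 628 and 479 in Dox+ 1, 2 and 3. The groups did not overlap, and the difference was 5.20-fold (log2 2.38, SE 0.39, limma adjusted p = 0.012). Leaving out Dox+ 3 gave a limma adjusted p of 0.092. The neurofilament partners NEFL and NEFM had at most 3 reads in any library. INA, the neuronal filament alpha-internexin, stood at 19.0, 13.3 and 10.4 in Dox- and at 49.1, 19.9 and 25.6 in Dox+ libraries (limma adjusted p = 0.64).

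Of 45 other keratins, 29 had no reads in any library and 4 were tested. None of the 4 passed limma. KRT10, a keratin of differentiated epidermis, was at 943 ± 357 in Dox- and 908 ± 441 in Dox+ (n = 3, limma adjusted p = 0.97), and was highest in replicate 2 of both groups. KRT80 was at 407 ± 185 and 633 ± 261 (n = 3, limma adjusted p = 0.75), higher in 3 of 3 pairs. The B-type lamins did not pass either, with LMNB1 at 1635 ± 234 and 1632 ± 493 and LMNB2 at 2650 ± 638 and 2437 ± 254 (n = 3, limma adjusted p = 0.98 and 0.93).

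Genes that process, anchor, fold or modify filaments were taken as lists drawn up from general knowledge. None of 20 tested lamin-processing and nuclear-envelope genes passed with or without the block, and their median log2 fold change was -0.06. SYNE1, which encodes nesprin 1 and ties the nucleus to the cytoskeleton, was at 1763 ± 154 and 1241 ± 231 (n = 3, limma adjusted p = 0.36). Of 16 tested cytolinkers and desmosomal anchors, 1 rose and none fell, against 2.52% and 0.357% of all genes, with a median of -0.08. PKP4, a p120-catenin relative of cell junctions, rose from 698 ± 146 to 1483 ± 45.1 (n = 3), 2.15-fold with limma adjusted p = 0.026. Leaving out Dox+ 1 (0.10), Dox+ 2 (0.076), Dox+ 3 (0.15), Dox- 1 (0.053) or Dox- 2 (0.10), or the variance trend (0.062), took that limma adjusted p past the threshold. DSC2, a desmosomal cadherin, did not pass with group only and rose with the replicate block, from 305 ± 67.1 to 846 ± 411 (n = 3, limma adjusted p = 0.19 without and 0.020 with it). It was also called higher without a block by DESeq2 (adjusted p = 0.0089) and by limma with Dox+ 2 left out (adjusted p = 0.013). PLEC, which encodes plectin, the linker that binds vimentin to actin and to the nucleus, was at 36844 ± 15528 and 32084 ± 8853 (n = 3, limma adjusted p = 0.94).

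Of 15 tested chaperone and turnover genes none passed, and with the block HSPB8, a small heat shock protein, rose in limma (adjusted p = 0.41 without and 0.036 with it) but missed the threshold in edgeR (adjusted p = 0.053). CRYAB, the alpha-B-crystallin that binds desmin and GFAP filaments, was at 2139 ± 1099 and 3103 ± 1037 (n = 3, limma adjusted p = 0.75). Of 15 tested kinases, phosphatases and deiminases that act on filaments none passed with or without the block. PADI4, a deiminase, was at 26.4, 37.0 and 81.3 in Dox- 1, 2 and 3 and at 15.2, 0 and 16.3 in Dox+ 1, 2 and 3 (limma adjusted p = 0.38).

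Transcription factors and signal carriers known to act on GFAP in astroglia formed a list of 21 genes. Of 20 tested, 1 rose and none fell in limma, against 2.52% and 0.357% of all genes, and the median log2 fold change was 0.20. With the block 2 rose and 2 fell, against 4.86% and 1.65% of all genes. SMAD1, a carrier of BMP signals, rose from 931 ± 165 to 2463 ± 411 (n = 3), 2.65-fold with limma adjusted p = 0.0092 (0.070 with Dox+ 3 left out). With the block NFIA also rose, from 141 ± 41.6 to 392 ± 128 (n = 3, limma adjusted p = 0.080 without and 0.0059 with it). NFIX, of the same NFI family, fell with the block, from 8280 ± 2703 to 4582 ± 998 (n = 3, limma adjusted p = 0.27 without and 0.029 with it, and 0.032 without it when Dox- 1 was left out). JUN, an AP-1 subunit, fell with the block in limma, from 2714 ± 587 to 1557 ± 723 (n = 3, adjusted p = 0.32 without and 0.048 with it), but missed the threshold with the block in edgeR (adjusted p = 0.064). STAT3, the mediator of cytokine-driven GFAP expression in glia, was at 8299 ± 1059 and 7223 ± 490 (n = 3, limma adjusted p = 0.83).

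**Figure D4:**
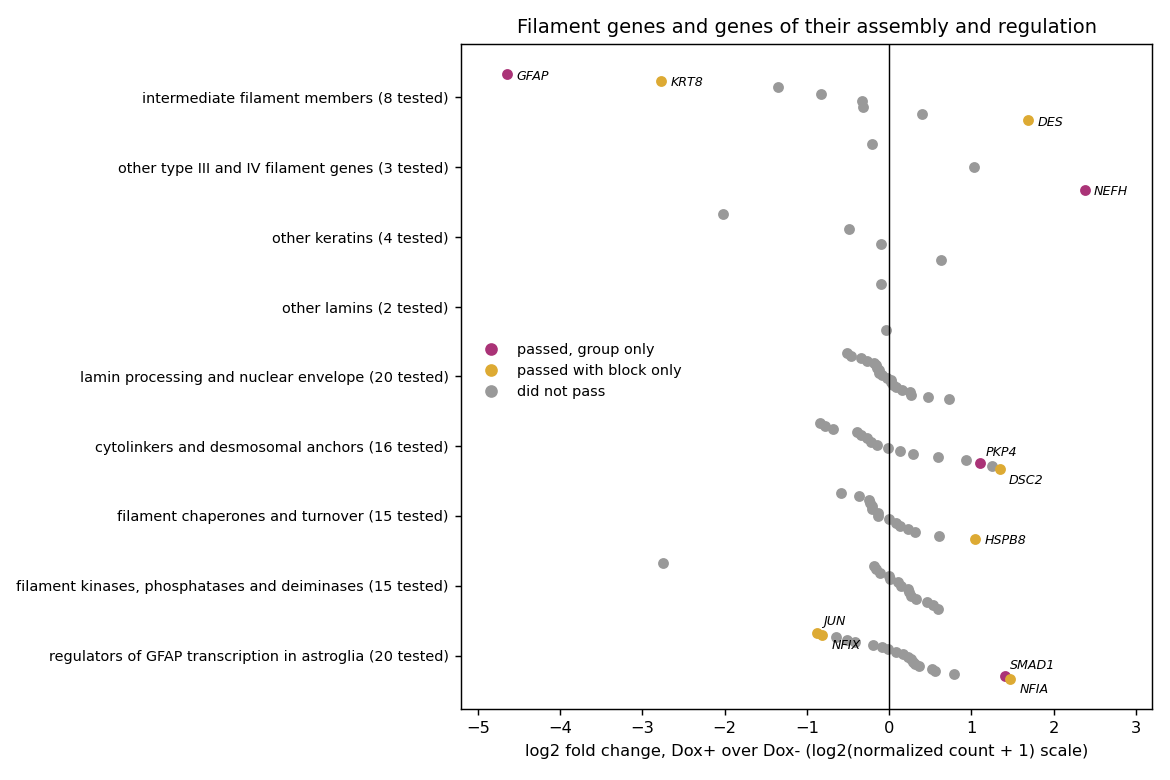
Log2 fold change of each tested gene in the 9 lists, Dox+ over Dox-, with colour for genes that passed limma with group only, with the replicate block only, or neither. GFAP at -4.64 and NEFH at 2.38 lie farthest out to either side.

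Markers of the cell types that carry these filaments elsewhere were read in the same libraries. Of 12 astrocyte markers, AQP4 and ALDH1L1 had no reads, and SLC1A2 and FABP7 had at most 3 in any library. GFAP left out, 7 astrocyte markers were tested, 2 rose and none fell in limma, against 2.52% and 0.357% of all genes. The median log2 fold change of the 7 was 0.06, so the list did not rise as a whole. With GFAP left out, the list of 11 genes summed to 48604 to 67201 in Dox- and 97696 to 148277 in Dox+ libraries, a sum weighted to the genes with the most counts. The genes that rose, opposite to GFAP, were GJA1, the gap junction protein connexin 43 (3.36-fold, limma adjusted p = 0.017), and SLC4A4, a bicarbonate transporter (10.0-fold, limma adjusted p = 0.024). Neither call held when a library was left out other than Dox+ 2 or Dox- 1: the limma adjusted p was then 0.064 to 0.099 for GJA1 and 0.058 to 0.15 for SLC4A4. Without the variance trend it was 0.056 and 0.067. The part of astrocyte-like cells in the level of GFAP was not tested. S100B, shared by glia and chondrocytes, was at 15750 ± 2995 and 12889 ± 2486 (n = 3, limma adjusted p = 0.80). Of 12 Schwann cell markers, MBP and CDH19 had no reads, 5 were tested and none passed, though MAL fell with the block (limma adjusted p = 0.15 without and 0.018 with it). The summed Schwann list was 17272 to 22964 in Dox- and 17711 to 22756 in Dox+ libraries.

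Beside DES, the skeletal muscle genes MYOD1, MYOG, PAX7, ACTA1, MYH1 and MYH2 had no reads. The other 10 genes of the muscle list include those 6, and CKM with at most 3 reads in any library, and 2 of the 10 were tested. The 10 summed to 58.9 to 78.4 in Dox- and 23.3 to 49.4 in Dox+ libraries. That sum was lower in Dox+ but rested on few genes, so it does not speak for the list as a whole. Of the 2 tested, TNNI2, a fast-muscle troponin, fell with the block (limma adjusted p = 0.098 without and 0.022 with it, and 0.049 without the block or the variance trend). Of 8 tested smooth muscle and pericyte markers, MCAM rose 41.9-fold (limma adjusted p = 0.00021) and ACTA2, smooth muscle actin, fell 4.18-fold (limma adjusted p = 0.0031). That list summed to 8991 to 11959 in Dox- and 6119 to 8031 in Dox+ libraries. Its part in the level of DES was not tested.

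Beside the keratins, 3 of 12 epithelial markers were tested and none passed, while GRHL2 and KRT5 had no reads. The epithelial list summed to 190 to 296 in Dox- and 81.2 to 126 in Dox+ libraries. That sum was lower in Dox+ but rested on few genes, so it does not speak for the list as a whole. CDH1, the epithelial cadherin, was at 105 ± 27.0 and 39.7 ± 30.8 (n = 3, limma adjusted p = 0.28 without and 0.038 with the block). ELF3, an epithelial transcription factor, also passed with the block, at 92.3 ± 78.5 and 34.2 ± 40.6 (n = 3, limma adjusted p = 0.62 without and 0.044 with it). In edgeR with the block neither passed (adjusted p = 0.054 for CDH1 and 0.085 for ELF3). Among 10 notochord markers TBXT and SHH had no reads, and LGALS3, a galectin that many cells make, fell in limma (adjusted p = 0.024, and 0.062 to 0.14 when Dox+ 1, Dox+ 3, Dox- 2 or Dox- 3 was left out). With the block CD24, a surface glycoprotein, rose in limma (adjusted p = 0.53 without and 0.023 with it), opposite to LGALS3, and missed the threshold in edgeR (adjusted p = 0.081). Without the 3 keratins that list held 7 genes, of which 3 were tested and NOTO had at most 3 reads in any library. Those 7 genes summed to 34361 to 46643 in Dox- and 17301 to 22032 in Dox+ libraries. That sum is weighted to the genes with the most counts, so it does not speak for the list as a whole. The part of such cells in the keratin levels was not tested. For endothelial markers the summed level was 136 to 297 in Dox- and 158 to 226 in Dox+ libraries, and for leukocyte markers it was 206 to 462 and 381 to 714. None of 14 tested proliferation genes passed, with a median log2 fold change of 0.01.

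Genes next to the filament genes were read in the order of the RefSeq gene table of ARS-UCD2.0, with 5 protein-coding genes on each side. That gave 80 genes, of which 76 were matched, 48 were tested, 1 rose and 1 fell, against 2.52% and 0.357% of all genes. The gene that fell was C1QL1, a secreted C1q-like protein, which lies 2 genes from GFAP. C1QL1 stood at 440, 1041 and 1419 in Dox- 1, 2 and 3 and at 74.5, 220 and 107 in Dox+ 1, 2 and 3. The groups did not overlap, with a log2 difference of -2.83 (SE 0.51, limma adjusted p = 0.020). Leaving out Dox+ 1 (0.067), Dox+ 3 (0.12), Dox- 2 (0.082) or Dox- 3 (0.083), or the variance trend (0.062), took that limma adjusted p past the threshold. KIF18B, a mitotic kinesin gene that lies between GFAP and C1QL1, had a log2 difference of -0.01 (SE 0.31). Of the 8 tested neighbours of GFAP, the other 7 did not pass.

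The neighbour that rose was ADAMTS17, a secreted protease, which lies 5 genes from SYNM. It went from 53.9 ± 28.8 to 367 ± 36.1 (n = 3), 7.63-fold with limma adjusted p = 0.012 (0.058 with Dox+ 1 left out and 0.077 with Dox+ 3 left out). With the block IGFBP6, near KRT8 and KRT18, fell as well (limma adjusted p = 0.072 without and 0.0089 with it). No neighbour of VIM, DES, NES or LMNA passed with or without the block, and none of those of KRT19 was tested. Since no source used here gives the strand setting of the counting, reads of neighbours that overlap cannot be told apart.

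**Figure D5:**
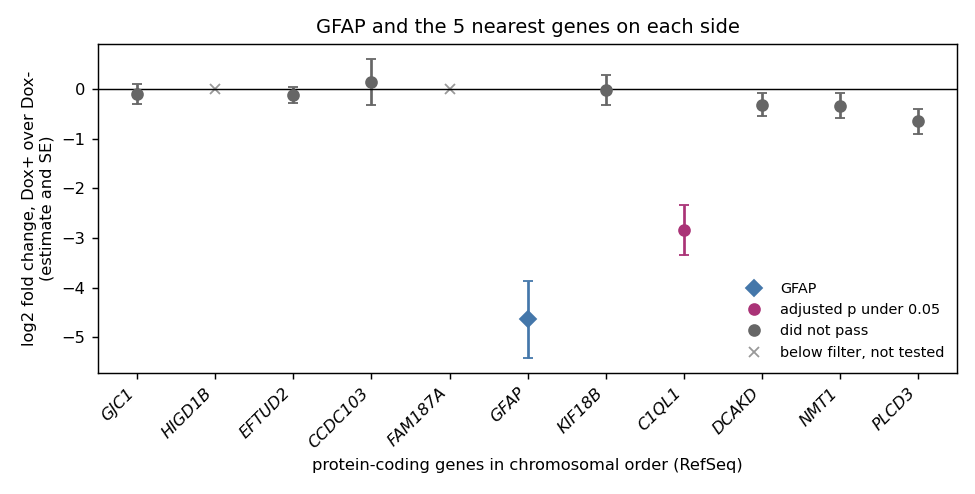
Log2 fold change, Dox+ over Dox-, of GFAP and its tested neighbours in gene order, with the standard error from limma as bars; the x axis is the order of protein-coding genes, not a distance, and crosses at 0 mark 2 genes that were not tested. GFAP at -4.64 and C1QL1 at -2.83 lie below 0, with KIF18B at -0.01 between them.

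Among 11520 other genes with a mean of at least 50, the 5 whose log2 values followed GFAP most closely over the 6 libraries were LRP3, NGEF, DSTN, ATF5 and SMIM19, with Pearson's r between 0.991 and 0.996 as a description. LRP3 is a lipoprotein receptor relative, NGEF a guanine nucleotide exchange factor, DSTN the actin-severing protein destrin, ATF5 a transcription factor and SMIM19 a small membrane protein. Being picked for likeness to GFAP, all 5 were lower in each Dox+ library than in any Dox- library, against 6.29% of all tested genes. Their sizes differed widely on the same scale: NGEF was 4.41-fold lower (limma adjusted p = 0.015, and 0.056 to 0.069 when Dox+ 1, Dox+ 3, Dox- 2 or Dox- 3 was left out), ATF5 2.37-fold (0.063), LRP3 1.84-fold (0.13), DSTN 1.51-fold (0.20) and SMIM19 1.18-fold (0.77). With the block ATF5 (0.0026) and LRP3 (0.036) also passed in limma. The 6 libraries fall into 2 groups, so this likeness includes the group difference that GFAP was chosen for.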

How the data were processed

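Messenger RNA libraries (KAPA mRNA HyperPrep, per the labels' protocols) were made from 3 Dox- and 3 Dox+ cultures. The authors deposited a signal table of normalized counts for 27607 genes, with 1 size factor per library. Tools named with no role, per the submitters' processing notes, were STAR 2.5.2b, Salmon, DESeq2, FastQC 0.11.3 and MultiQC 1.2, with bosTau9 and ARS-UCD1.2 as builds. The sources used here do not give the annotation or strand setting. The authors' deposited comparison table holds for each gene a log2 fold change, its standard error (kept as a score), a p-value before and after adjustment, and a mean signal within 7.1e-10 (relative) of the mean over the 6 libraries.

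Values were whole multiples of 1 step per library, and 100% of those above 0 came out whole within 0.01 read, so reads were recovered. Libraries of a group differed beyond sampling noise, by a chi-square over its degrees of freedom of 54.8 to 414. Intervals and floors of 3 reads cover counting error only.

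Groups were compared with limma 3.58.1 (R 4.3.3; moderated with a variance trend; two-sided) on log2(normalized count + 1), with group only, in 13180 genes with a mean of at least 10 and Benjamini-Hochberg adjustment at 0.05. edgeR 4.0.16 and DESeq2 1.42.0 on recovered reads, other pseudocounts, filters and scalings, and leaving out libraries were alternatives. Same-numbered libraries deviated together over 13180 genes (correlations of 0.65, 0.44 and 0.21 for 1, 2 and 3). Libraries of different numbers gave -0.59 to 0.18, and Dox- 3 with Dox+ 2 gave 0.18, so pair 3 is hardly set apart. Deviations from a mean of 3 libraries sum to 0, which pulls those other values down. The replicate number was taken to pair the libraries, without proof, and the blocked value is given where it changes a call. That number is taken from the titles, which do not say that it names a knee. The fit was tested on simulated data.

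The members and lists were chosen with earlier results of these data known. Named genes were the members, up to 4 genes per list with the smallest p, neighbours that passed, and the 5 genes most like GFAP by Pearson correlation. PLEC, STAT3, KIF18B, NEFL, NEFM and markers given at 0 or at most 3 reads were named beyond that rule, after their values were seen. Symbols came from the authors' table. RefSeq's table of another build (ARS-UCD2.0) gave gene order only.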

Additional observations from a re-analysis of the deposited data

How the results depend on the processing

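Few reads limit KRT19 in every library, and KRT8 and KRT18 in some libraries. KRT18 had 246 reads in Dox- 1 and 3 in Dox+ 2, the library with the most reads. Its residual SD was 2.58 without and 0.92 with the replicate block, and the part of depth in that spread was not tested. With 3 libraries a group, 1 library could move a call. limma called 379 genes, 701 were called by DESeq2, 781 by edgeR with the replicate block and 858 by limma with the replicate block. Leaving out 1 library gave 148 to 437, and leaving out 1 pair with the block gave 790, 1210 and 1454 for pairs 1, 2 and 3. Of the calls 87.6% were higher in Dox+ with group only and 74.6% with the block. Of the 9 filament genes 1 was called, against 2 with DESeq2, 2 with edgeR and the block, 3 with limma and the block and 0 without the variance trend. Leaving out a library gave 0 to 1, and leaving out a pair with the block gave 3 to 5. Of the listed genes outside them 3 were called, against 5, 6 and 8 with DESeq2, edgeR with the block and limma with the block. Leaving out a library gave 0 to 3, and leaving out a pair with the block gave 10 to 17 (14 without pair 2). Of their neighbours 2 were called, against 1 without the variance trend. Leaving out a library gave 0 to 3, and leaving out a pair with the block gave 3 to 5. Of 159 alternative values for the filament genes, 140 kept direction and side of the threshold, 4 lost and 12 gained the call, and 3 changed sign. With 1 library left out NES ranged from -0.14 (without Dox+ 1; -0.11 without Dox- 2) to 0.93, and KRT18 from -2.87 to 0.21 (without Dox+ 2). The cause was not tested.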
